A study of Mus musculus with 231 samples.

Results

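The 4 miRNAs followed here are known from muscle and were measured in peripheral blood mononuclear cells (PBMC) of mice that develop acute myeloid leukemia. They are mmu-miR-499-5p, mmu-miR-1a-3p, mmu-miR-133a-3p and mmu-miR-206-3p. They make up 4 of the 1863 mature miRNAs in the training count table and of the 1895 in the training table of normalized values, and all 4 are named in both. They were chosen by the month 4 levels of miR-499-5p, which were higher in leukemia-prone mice, so month 4 is described here without a test, and the 3 others were added to show how muscle miRNAs behaved in the same libraries. The mice were C57BL/6 with a conditional knock-in of the leukemia fusion gene Cbfb-MYH11 (CM; labelled Cbfb56M/+ with Mx1-Cre). The fusion was switched on at 6-8 weeks of age by poly(I:C), a double-stranded RNA that induces interferon, given every other day at 14 mg/kg for 7 doses. Ctrl mice were littermates of the same age that received the same injections, so both arms share the poly(I:C) treatment. The genotype label was CHW in every CM mouse and CW, HW or WT in Ctrl mice, codes that the labels do not explain. Cre under the Mx1 promoter answers to interferon in several tissues, blood-forming cells among them, and blood at a late time point can hold leukemic cells as well as normal ones.

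The training cohort came from 7 CM mice (4 female and 3 male, 53 libraries) and 7 Ctrl mice (2 female and 5 male, 76 libraries), drawn before induction (month 0) and monthly up to month 10. Of the CM libraries, 2 carried the time label T6p5, which the labels do not explain. CM groups shrank from 7 libraries at month 0 to 5 at months 5 and 6 and 1 at month 10. The validation cohort had 60 libraries of 10 CM mice and 42 of 6 Ctrl mice, of which only the 12 libraries of sampling point 5, 6 per arm, were deep enough to measure these miRNAs.

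Muscle miRNAs form a small set that is made almost exclusively in heart and skeletal muscle and is known to appear in the circulation when muscle is damaged. miR-1a and miR-133a are made together from shared transcripts in both kinds of muscle, and miR-206 and miR-133b are made together in skeletal muscle. miR-499 is made from an intron of Myh7b, a gene for a slow myosin heavy chain, and belongs to a family with miR-208a and miR-208b, which lie in introns of the cardiac myosin genes. A miRNA silences its targets mainly through its seed, the bases near the 5′ end that pair with messenger RNA.

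Mature sequences of 2 of the 4 members were found in the RefSeq table (GRCm38.p6), which lists 1738 mature miRNAs. They are shown 5′ to 3′ with bases 2 to 8, the seed, in capitals. miR-499-3p, the opposite arm of the same hairpin, and miR-133b-3p, the partner of miR-206, are shown because their levels are set beside those of the members.

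miR-499-5p: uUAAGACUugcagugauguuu
miR-499-3p: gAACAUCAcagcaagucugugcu
miR-206-3p: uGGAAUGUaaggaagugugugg
miR-133b-3p: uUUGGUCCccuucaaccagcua

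None of the other listed mature miRNAs has the seed of miR-499-5p, whereas 2 others have that of miR-206-3p. miR-499-5p lies at chr2:155622893-155622913 and miR-499-3p at chr2:155622929-155622951, both on the plus strand. miR-206-3p lies at chr1:20679055-20679076 and miR-133b-3p at chr1:20682834-20682855, also on the plus strand. In the annotation of the older build NCBIM37 (GENCODE vM1), the Mir499 hairpin at chr2:155448616-155448694 lay within Myh7b (chr2:155436948-155460043, same strand) and touched none of its exons. The hairpins of Mir206 (chr1:20669091-20669163) and Mir133b (chr1:20672850-20672968) lay within no annotated gene.

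Training libraries held 1792809 to 7958411 counts. The normalized values, called deposited CPM here, are counts scaled to library size after a between-library scaling, and each of them was a whole number of reads times a factor for its library (100% within 0.01 of a read), so that the authors' reads could be recovered (1376082 to 7520419 per library). The count table and the recovered reads differed most for 2 members. In libraries with 10 or more recovered reads, the count of miR-499-5p was 1 to 1.81 times the recovered reads and that of miR-206-3p 0.707 to 1.36 times. For miR-1a-3p the ratio ran from 0.00641 to 0.989 and was under 0.5 in 63 libraries, and for miR-133a-3p it ran from 0 to 1.05 and was under 0.5 in 65 libraries. Values of miR-1a-3p and miR-133a-3p are therefore given from the deposited CPM and the recovered reads, with the fit of the counts beside them. The recovered-read fits were added after this difference was seen. Levels are in deposited CPM and fold changes are log2 of CM over Ctrl throughout, with a call at a Benjamini-Hochberg adjusted p under 0.05 over all miRNAs tested.

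Several libraries stood apart. The month 6 library of CM mouse 3334 and the month 7 library of Ctrl mouse 3349 had 9946 and 7514 CPM of miR-1a-3p, against a median of 185.9 over all training libraries. The month 2 library of Ctrl mouse 3349 was the shallowest (1376082 recovered reads) and was the only training library with no read of miR-499-5p. The running numbers in the titles of CM mouse 3334 and Ctrl mouse 3335 cross at month 6. They stay crossed in the later libraries of both mice, the T6p5 library of mouse 3334 among them. At month 5 miR-499-5p was at 28.7 CPM in Ctrl mouse 3335 and 18.6 CPM in CM mouse 3334, and at month 6 it was at 11.65 and 5.91 CPM, the reverse of the order of their arms. Results of months 5 and 6 are therefore also given without these mice. At month 5 the running numbers had not crossed, and the mice were left out with their miR-499-5p values in view. Values of month 5 without them are therefore a description with no test.

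miR-499-5p was a low-abundance miRNA, with a median of 6.70 CPM and a range from 0 to 157.5 CPM over the training libraries, or 0 to 416 recovered reads. Its passenger arm miR-499-3p reached at most 6 recovered reads and was at 0 in 76 libraries. At month 4, the month that chose it, miR-499-5p was at 12.4 to 44.7 CPM in the 6 CM libraries (median 23.3) and at 3.46 to 8.91 CPM in the 7 Ctrl libraries (median 5.25). The arms did not overlap. Here and below, how many of all miRNAs also lacked overlap between the arms was not counted, so a lack of overlap is a description. Fold changes (log2) were 2.10 from the counts and 2.22 from the recovered reads, given as a description of the values that chose it. At that month 0.837% of 478 miRNAs were called from the counts and 2.11% of 475 from the recovered reads.

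Before induction miR-499-5p did not separate the arms. It was at 4.16 to 11.6 CPM in CM mice (median 5.98, n = 7) and at 3.16 to 8.16 CPM in Ctrl mice (median 5.63, n = 7). The ranges overlapped, with 1 CM library above every Ctrl library. The log2 fold change was 0.27 ± 0.24 (SE, adjusted p = 0.675, edgeR) from the counts, where 0.209% of 478 miRNAs were called. From the recovered reads edgeR called 0% of 473 miRNAs, with 67 at an unadjusted p under 0.05.

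One month after induction miR-499-5p was higher in CM mice. The 7 CM libraries ranged from 10.15 to 99.85 CPM (median 16.1) and the 7 Ctrl libraries from 3.31 to 6.397 CPM (median 5.01). Every CM library lay above every Ctrl library, and the highest value was that of mouse 3336. The log2 fold change was 2.34 ± 0.45 (SE, adjusted p = 0.00523, edgeR) from the counts and 2.64 ± 0.49 (adjusted p = 0.00176, edgeR) from the recovered reads. This stood against a background of 27.5% of 472 miRNAs called from the counts and 31.4% of 468 from the recovered reads, so that calls were common at this month.

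At month 2 the arms again did not overlap, at lower levels. miR-499-5p was at 4.84 to 10.1 CPM in 6 CM libraries (median 6.90) and at 0 to 4.14 CPM in 7 Ctrl libraries (median 2.69). A log2 fold change of 1.22 ± 0.40 (SE, adjusted p = 0.0563, edgeR) from the counts did not pass the threshold, whereas the recovered reads gave 1.41 ± 0.37 (adjusted p = 0.0187, edgeR). Without the shallow library of Ctrl mouse 3349 the counts gave 1.035, and 26.6% of 478 miRNAs were called. This library was singled out with its value in view, so that fold change is a description with no test. With all mice the background was 13.5% of 481 miRNAs from the counts and 22.2% of 481 from the recovered reads.

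At month 3 miR-499-5p was at 3.87 to 32.85 CPM in CM mice (median 14.0, n = 7) and at 1.84 to 6.02 CPM in Ctrl mice (median 3.75, n = 7). Of the CM libraries, 6 lay above every Ctrl library, and the lowest was that of mouse 3334. The log2 fold change was 2.06 ± 0.41 (SE, adjusted p = 0.00363, edgeR) from the counts and 2.13 ± 0.38 (adjusted p = 0.000938, edgeR) from the recovered reads, with 22.0% of 455 and 27.8% of 450 miRNAs called.

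Counts of months 1, 2 and 3 were also summed per mouse, which gives 1 value for each of 7 CM and 7 Ctrl mice and holds no library of month 4. CM mouse 3334 had no month 2 library, so its sum holds months 1 and 3 only. miR-499-5p was higher in CM mice by 2.06 ± 0.30 (SE, log2, adjusted p = 0.0002, edgeR) from the counts and by 2.16 ± 0.30 (adjusted p = 9.02e-05, edgeR) from the recovered reads. Leaving out each mouse in turn gave 1.76 to 2.14, and all 14 fits of the counts passed the threshold. The background was 35.6% of 649 miRNAs from the counts and 39.9% of 629 from the recovered reads. Summing months 1, 2, 3, 5 and 6 gave 1.56 (adjusted p = 0.001, edgeR), with 211 of 745 miRNAs called. CM mice 3338 and 3357 had no library of months 5 and 6.

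**Figure D1:**
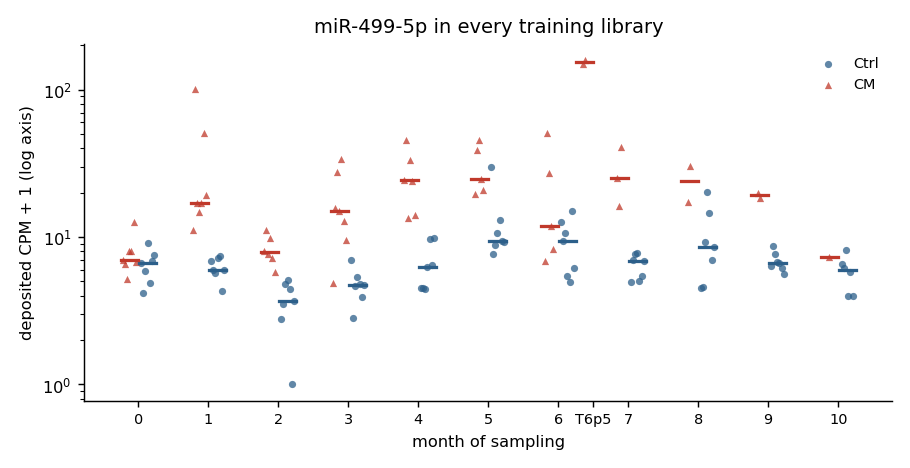
Deposited CPM of miR-499-5p plus 1 on a log axis against the month of sampling, 1 point per training library, with triangles for CM, circles for Ctrl and bars at group medians. T6p5 is drawn between months 6 and 7. CM libraries lie above all Ctrl libraries at months 1, 2 and 4, and the 2 T6p5 libraries, at 147.8 and 157.5 CPM, are the highest.

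At months 5 and 6 CM values stayed above the Ctrl median in most libraries and the arms overlapped. At month 5 miR-499-5p was at 18.6, 19.8, 23.75, 37.98 and 44.3 CPM in the 5 CM libraries and at 6.74 to 28.7 CPM in 7 Ctrl libraries (median 8.48). The highest Ctrl value was that of mouse 3335. The log2 fold change of miR-499-5p was 1.31 ± 0.37 (SE, adjusted p = 0.106, edgeR). Without mice 3334 and 3335 it was 1.81, where 10.4% of 511 miRNAs were called. This leaves out the lowest CM value and the highest Ctrl value of the month, so it is a description with no test. The recovered reads without these mice gave 1.88 (13.2% of 500 called). At this month edgeR called 0% of 505 miRNAs from the counts, with 21.6% at an unadjusted p under 0.05, DESeq2 called 21, and edgeR called 0% of 495 from the recovered reads.

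At month 6 the 5 CM libraries ranged from 5.91 to 49.8 CPM (median 10.85) and the 7 Ctrl libraries from 3.96 to 14.0 CPM (median 8.34). A log2 fold change of 1.03 ± 0.54 (SE, adjusted p = 0.706, edgeR) did not pass the threshold, nor did 1.57 (adjusted p = 0.232) without mice 3334 and 3335. edgeR called 0% of 444 miRNAs from the counts and 0% of 443 from the recovered reads, with 31 and 38 at an unadjusted p under 0.05, and DESeq2 called 0. With the T6p5 libraries of mice 3334 and 3336 in place of their month 6 libraries, the fold change was 2.97 (adjusted p = 0.0585, edgeR) from the counts. From the recovered reads it was 3.19 (adjusted p = 0.0424, edgeR). In these fits 0 of 441 and 24 of 437 miRNAs were called. The T6p5 libraries are the highest of all in miR-499-5p and were set against month 6 Ctrl libraries. That of mouse 3334 carries a crossed running number.

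The titles carry a number after the letter G, from G1 to G7, that the labels do not explain. CM and Ctrl libraries of month 4 shared none of these numbers, and those of month 3 shared 1. Where 1 month and 1 number held both arms, the case held 1 or 2 CM and 1 to 3 Ctrl libraries. For miR-499-5p every CM library was above every Ctrl library in 6 of 6 cases over months 1 to 3. This held in 3 of 4 cases at month 0, 4 of 5 over months 5 and 6 and 5 of 5 over months 7 to 10. miR-1a-3p and miR-133a-3p also gave 6 of 6 over months 1 to 3. With so few libraries per case such an order can arise by chance, and its share over all miRNAs was not counted. With the number as a covariate the month 1 fold change was 1.61 ± 0.55 (SE, adjusted p = 0.139, edgeR) and that of month 3 was 1.56 ± 1.03 (adjusted p = 0.473), so that both calls were lost. In the fit of all training libraries with that covariate, the month 1 fold change was 2.32 and that of month 3 was 1.86. That fit has no term for the mouse and holds several libraries of each mouse, those of month 4 among them, so no test is attached.

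miR-1a-3p, the most abundant of the 4, was also higher in CM mice at months 1 to 3. At month 0 it was at 134.3 to 956.2 CPM in CM mice (median 181.1) and at 90.1 to 1555 CPM in Ctrl mice (median 142.2), with overlapping ranges. At month 1 it was at 302.3 to 830 CPM in CM mice (median 428.8) and at 95.7 to 189.7 CPM in Ctrl mice (median 139.7). At month 2 the ranges were 330.1 to 550.1 CPM and 21.3 to 185.9 CPM, and at month 3 they were 209.6 to 671.3 CPM and 106.4 to 193.6 CPM. The arms did not overlap at any of these 3 months.

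From the recovered reads miR-1a-3p was higher by 1.75 ± 0.24 (log2, SE, edgeR adjusted p = 7.77e-05) at month 1. The month 2 difference was 1.71 ± 0.30 (adjusted p = 0.00224, edgeR), and that of month 3 was 1.499 ± 0.26 (adjusted p = 0.000938, edgeR). The count table, whose value was under 0.5 of the recovered reads in 63 libraries, gave 1.58 ± 0.74 (adjusted p = 0.131), 2.40 ± 0.94 (adjusted p = 0.0977) and 2.25 ± 1.14 (adjusted p = 0.166), none past the threshold. The calls at single months thus hold in the recovered reads and not in the counts, and which counting is right was not tested. Sums of months 1 to 3 per mouse gave 1.62 ± 0.15 (adjusted p = 3.03e-06) from the recovered reads and 2.15 ± 0.62 (adjusted p = 0.0142) from the counts. With the G number as a covariate the month 1 value from recovered reads was 1.74 (adjusted p = 0.00265, edgeR). The month 2 value was 1.42 (adjusted p = 0.00792, edgeR), while month 3 gave 1.69 and lost its call (adjusted p = 0.237). In these fits 15 of 468, 12 of 481 and 9 of 450 miRNAs were called.

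At months 4 to 6 miR-1a-3p overlapped between the arms. At month 4 it was at 23.9, 170.2, 345.7, 459.1, 777.5 and 785.3 CPM in the 6 CM libraries and at 72.4 to 435.6 CPM in Ctrl mice (median 169.1). The CM library with the lowest miR-1a-3p, that of mouse 3338, had the highest miR-499-5p of the month, at 44.7 CPM. The month 4 fold change was 1.00 from the recovered reads and 0.32 from the counts. At month 5 the recovered reads gave 1.15 ± 0.47 (SE, adjusted p = 0.169, edgeR), and at month 6, with the very high library of mouse 3334, they gave 3.25 ± 0.97 (adjusted p = 0.222). Without mice 3334 and 3335 the recovered reads gave 1.96 at month 5, a description with no test, and 1.34 at month 6 (adjusted p = 0.441, edgeR). The counts gave 2.22 with these mice and 2.496 without them at month 5, and 3.79 and 0.30 (adjusted p = 0.912, edgeR) at month 6.

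miR-133a-3p, made from the same transcripts as miR-1a-3p, followed it closely, with a Spearman correlation in deposited CPM of 0.848 over the training libraries. These libraries share mice and were scaled together, so no test is attached. At month 1 it was at 10.1 to 63.85 CPM in CM mice (median 14.65) and at 2.31 to 6.15 CPM in Ctrl mice (median 3.06). At month 2 it was at 14.7 to 25.45 CPM against 1.87 to 6.78 CPM, and at month 3 at 6.89 to 27.1 CPM against 3.37 to 7.01 CPM. The arms did not overlap at months 1 and 2, and at month 3 only 1 of 7 CM libraries was within the Ctrl range.

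The recovered reads gave miR-133a-3p a month 1 log2 fold change of 2.75 ± 0.45 (SE, adjusted p = 0.000582, edgeR). Month 2 followed with 2.16 ± 0.30 (adjusted p = 0.000521, edgeR), and month 3 with 1.87 ± 0.32 (adjusted p = 0.000938, edgeR). In the same order of months the counts gave 3.98 ± 0.69, 3.52 ± 0.84 and 2.49 ± 0.69. In the count table Ctrl libraries held 0 to 9 counts of it at month 1, 0 to 10 at month 2 and 0 to 25 at month 3. It passed the filter there mainly through CM libraries, so the values from the counts are a description with no test. Sums of months 1 to 3 gave 2.25 ± 0.23 (adjusted p = 5.1e-06) from the recovered reads. At month 0 the fold change was -0.50 ± 0.75 (adjusted p = 0.797). With the G number as a covariate the month 1 value from recovered reads was 2.53 (adjusted p = 0.00813, edgeR). The month 2 value was 2.14 (adjusted p = 0.0399, edgeR), while month 3 gave 2.61 and lost its call (adjusted p = 0.167). In these fits 15 of 468, 12 of 481 and 9 of 450 miRNAs were called.

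Month 4 showed a wide spread of miR-133a-3p in CM mice, from 1.04 to 37.5 CPM (median 17.4), against 4.99 to 12.1 CPM in Ctrl mice (median 6.03). The fold change of that month was 1.39 from the recovered reads and 2.02 from the counts. At month 5 the recovered reads gave 1.20 ± 0.48 (SE, adjusted p = 0.169, edgeR), and at month 6 they gave 3.68 ± 1.06 (adjusted p = 0.222). Leaving out mice 3334 and 3335 gave 1.99 at month 5, a description with no test, and 1.46 (adjusted p = 0.438, edgeR) at month 6. From the counts the values without these mice were 1.81 and 1.68 (adjusted p = 0.47, edgeR, at month 6), against 1.09 and 3.55 with them.

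**Figure D2:**
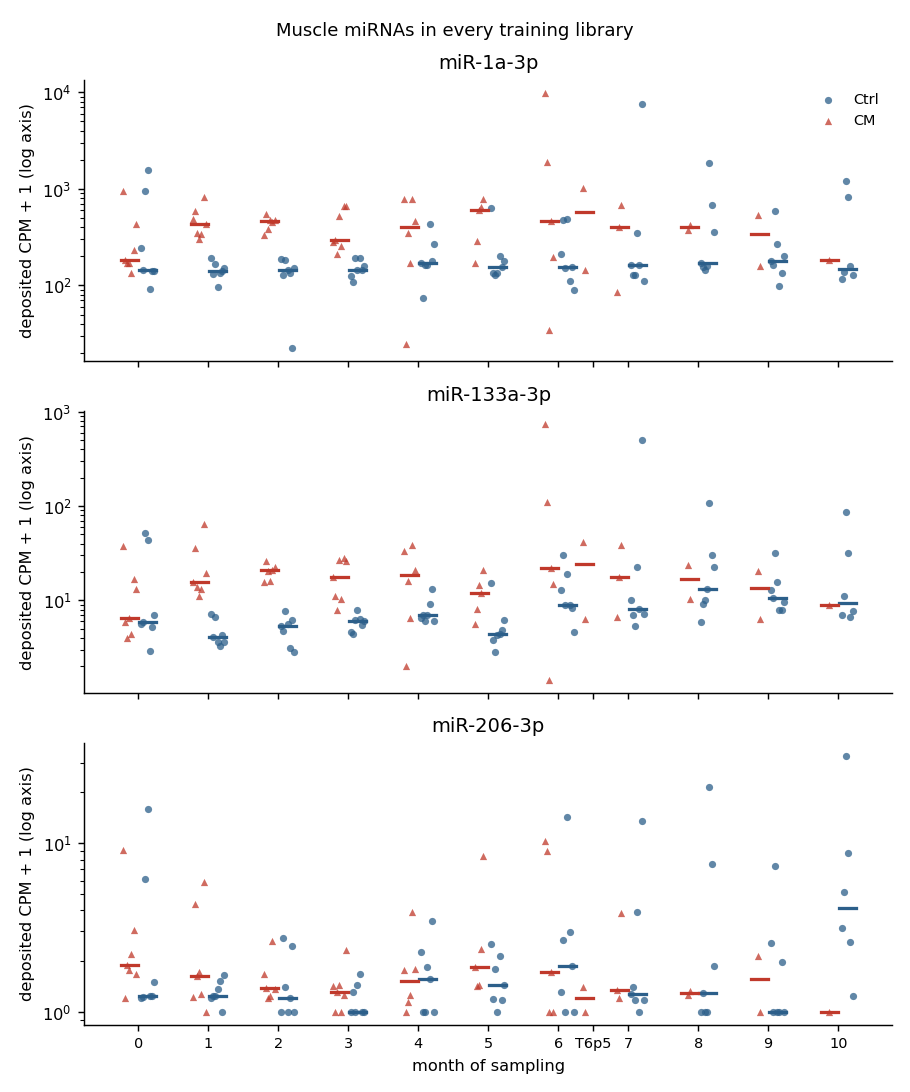
Deposited CPM plus 1 on log axes against the month of sampling for miR-1a-3p, miR-133a-3p and miR-206-3p, 1 point per training library, with triangles for CM, circles for Ctrl and bars at group medians. miR-1a-3p separates the arms at months 1 to 3, miR-206-3p lies near 0 in most libraries of both arms, and single libraries stand far above the rest, such as month 6 in CM (9946 CPM of miR-1a-3p) and month 7 in Ctrl (7514 CPM).

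miR-206-3p, the skeletal muscle miRNA that shares a seed with other listed miRNAs, was near the limit of detection. It had 3 or fewer recovered reads in 87 training libraries and none in 31, where a count of 0 allows up to 0.511 to 1.29 CPM depending on the library. At month 1 it was at 0 to 4.86 CPM in CM mice (median 0.631) and at 0 to 0.653 CPM in Ctrl mice (median 0.248). At month 2 it was at 0.209 to 1.63 CPM against 0 to 1.76 CPM, at month 3 at 0 to 1.32 CPM against 0 to 0.670 CPM, and at month 4 at 0 to 2.91 CPM against 0 to 2.47 CPM. The arms overlapped at each of these months. It did not pass the filter on low counts in the edgeR fit of any single month or of the sums of months 1 to 3. Without the filter the month 1 log2 fold change was 2.27 ± 0.72 (SE, adjusted p = 0.063, edgeR), where 94 of 1574 miRNAs were called. Months 2 and 3 gave -0.022 and 0.41, and their sums with month 1 gave 1.24 (adjusted p = 0.178, edgeR). Summing months 1, 2, 3, 5 and 6, where it passed the filter, gave 0.85 (adjusted p = 0.287, edgeR). With so few reads, the lack of a call does not show that the arms were alike. Its highest training values were 31.85 CPM in a month 10 Ctrl library and 20.5 CPM in a month 8 Ctrl library.

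Of the 17 miRNAs listed as markers of heart and skeletal muscle, which included the 4 members, 5 passed the filter in the recovered reads at month 1, 5 at month 2, 4 at month 3 and 7 in the sums of months 1 to 3. At months 1 to 3 those that passed were called higher in CM mice and none was called lower, with a median log2 fold change of 1.75, 1.61 and 1.69 against -0.07, -0.05 and 0.08 over all miRNAs tested, of which 31.4%, 22.2% and 27.8% were called. From the counts, with 27.5%, 13.5% and 22.0% of all miRNAs called, 3 of the 4 that passed were called higher at month 1, 2 of 4 at month 2 and 2 of 3 at month 3. In the sums of months 1 to 3, 5 of the 7 were called higher and 0 lower, with a median of 1.58 against -0.05 over all miRNAs tested, of which 39.9% were called, and from the counts 4 of 5 were called higher (35.6% over all). A listed miRNA with few reads in Ctrl mice passed the filter mainly through CM libraries, so these counts describe the miRNAs that passed and not the list.

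miR-133b-3p, which is made with miR-206, passed at month 2 with 1.51 ± 0.41 (log2, SE, recovered reads) and in the sums with 1.48 ± 0.27. It had 3 or fewer recovered reads in 35 training libraries and did not pass at months 1 and 3. A listed miRNA with few reads can pass through CM libraries, so no test is attached to miR-133b-3p. Its median was 1.76 CPM over the training libraries. miR-1b-5p had a median of 173.6 deposited CPM while the count table held at most 7 of its reads in a library, so its value is uncertain. The heart miRNAs miR-208a-3p and miR-208b-3p, relatives of miR-499, had at most 2 recovered reads in any training library.

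Summed over the 16 listed muscle miRNAs other than miR-499-5p, the level was 603.8 to 1683 CPM in CM mice and 193.1 to 387.9 CPM in Ctrl mice at month 1, and 668.6 to 1113 CPM against 52.1 to 375.2 CPM at month 2. At month 3 it was 397.2 to 1330 CPM against 212.9 to 390.3 CPM. At month 4 the sums overlapped, at 47.9 to 1584 CPM against 153.6 to 704.5 CPM. Of these 16, 6 were at 0 in all CM libraries of month 1 and 3 in all CM libraries of month 4. At months 2 and 3, 5 were at 0 in all CM libraries. Most of each sum was miR-1a-3p and the uncertain miR-1b-5p, and miR-206-3p overlapped between the arms at each of these months. In bulk samples a higher level of a miRNA can come from more cells or fragments of a type or from more RNA per cell, which cannot be told apart. The part of muscle miRNAs in the difference of miR-499-5p was not tested.

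With the miR-1a-3p level of each library as a covariate, the log2 fold change of miR-499-5p was 0.16 ± 0.91 (SE, adjusted p = 0.952, edgeR) at month 1 and -0.92 (adjusted p = 0.547) at month 2. It kept its call in month 3, with 2.68 ± 0.58 (adjusted p = 0.00818, edgeR), where 80 of 455 miRNAs were called. In the sums of months 1 to 3 it was 1.47 ± 0.92 (adjusted p = 0.578). As the arms did not overlap in miR-1a-3p at these months, the covariate and the arm cannot be told apart.

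**Figure D3:**
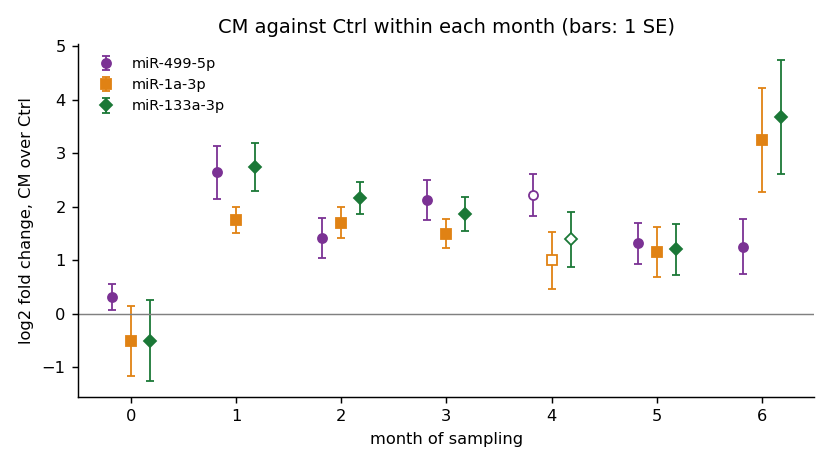
Log2 fold change of CM over Ctrl with bars of 1 SE against the month of sampling, from the recovered reads, for miR-499-5p, miR-1a-3p and miR-133a-3p. Open symbols mark month 4, which chose the miRNAs. All 3 lie above 0 at months 1 to 3, and at month 6 the estimates of miR-1a-3p (3.25) and miR-133a-3p (3.68) have the longest bars.

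Within each arm miR-499-5p and the muscle miRNAs were only weakly related. The Spearman correlation of miR-499-5p with miR-1a-3p was 0.413 over all training libraries, 0.0843 over the 53 CM libraries and 0.266 over the 76 Ctrl libraries. With miR-133a-3p it was 0.374, 0.00202 and 0.274, and with miR-206-3p it was 0.101, -0.0366 and 0.142. Libraries of the same mouse enter more than once, and the pooled value also holds the difference between arms.

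The libraries highest in 1 of the 2 miRNAs were compared for the other. miR-499-5p was at 5.91 CPM in the month 6 CM library with 9946 CPM of miR-1a-3p, and at 4.45 CPM in the month 7 Ctrl library with 7514 CPM. The next 3 libraries by miR-1a-3p, at 1897, 1851 and 1555 CPM, had 49.8, 13.5 and 8.16 CPM of miR-499-5p. The T6p5 libraries, highest in miR-499-5p, had 143.9 CPM of miR-1a-3p in mouse 3336 and 1017 CPM in mouse 3334, with 0 and 0.411 CPM of miR-206-3p. Of the 5 libraries highest in miR-499-5p, 4 lay above the training median of miR-1a-3p (185.9 CPM), and the month 6 library of CM mouse 3336 was among the 5 highest of both miRNAs.

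**Figure D4:**
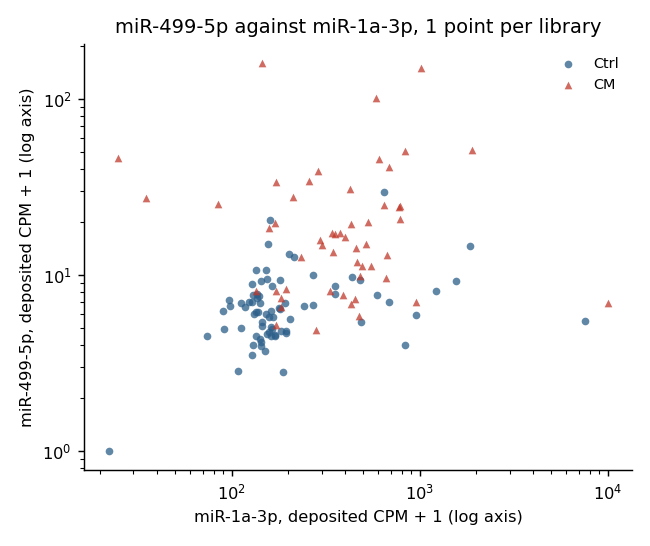
Deposited CPM plus 1 of miR-499-5p against that of miR-1a-3p, both on log axes, 1 point per training library, with triangles for CM and circles for Ctrl. The libraries with 9946 and 7514 CPM of miR-1a-3p sit at the right edge with 5.91 and 4.45 CPM of miR-499-5p, and the 2 T6p5 libraries, with 147.8 and 157.5 CPM of miR-499-5p, lie well to their left.

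The last library of each CM mouse was compared with its month 0 library. By month 4 miR-499-5p had gone from 4.16 to 44.7 CPM in mouse 3338 and from 7.04 to 32.4 CPM in mouse 3357, the last libraries of both. Mouse 3341 ended at 26.1 CPM at month 6 (7.04 CPM at month 0), and mouse 3334 at 147.8 CPM at T6p5 (5.98 CPM at month 0). Mouse 3336 ended at 24.2 CPM at month 7 (5.59 CPM at month 0) and mouse 3370 at 17.4 CPM at month 9 (5.79 CPM at month 0). The last library of mouse 3368, from month 10, was lower (11.6 CPM at month 0 and 6.34 CPM at month 10). Of the 5 mice whose last library was later than month 4, 4 were higher at the end.

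Month 4, which chose the miRNA, supplied 2 of these end points, so the test is that of the 5 other mice. Both libraries of each mouse entered as separate samples, and no fit of these 5 with the mouse as a block was made. Over month 0 miR-499-5p was higher by 2.69 ± 0.74 (log2, SE, adjusted p = 0.0351, edgeR) from the counts, with 17.7% of 458 miRNAs called. From the recovered reads it was 2.60 ± 0.72 (adjusted p = 0.0282, edgeR), with 23.3% of 460 called. The call rested on few mice, and the end point of mouse 3334 was its T6p5 library, which carries a crossed running number. Leaving out a further mouse gave 1.43 (without mouse 3334) to 3.15 (without mouse 3368) from the recovered reads, and the call was lost in 4 of 5 of these fits, those without mice 3334, 3336, 3341 or 3370 (adjusted p = 0.0933, 0.0971, 0.0819 and 0.0551, edgeR). With all 7 mice the fold change was 2.77 from the counts and 2.68 from the recovered reads, a description with no test, as month 4 libraries enter. In that fit 39.0% of 446 miRNAs were called from the counts and 45% of 453 from the recovered reads.

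Neither miR-1a-3p nor miR-133a-3p gave a call in the same 5 mice. The log2 fold change of miR-1a-3p was -0.45 ± 0.80 (SE, adjusted p = 0.72, edgeR) from the recovered reads and 0.63 (adjusted p = 0.724) from the counts, and that of miR-133a-3p was -0.35 ± 0.85 (adjusted p = 0.787) and 1.63 (adjusted p = 0.314). The 2 tables thus differed in sign for both. Over all 7 mice miR-1a-3p was higher at the end in 2 and miR-133a-3p in 3. miR-206-3p was lower in 6 of 7 mice, from 0.207 to 8.13 CPM at month 0 and from 0 to 0.411 CPM in the last libraries, and 4 of these had no read of it. It did not pass the filter, and without the filter its log2 fold change over the 7 mice was -3.65. That value is a description with no test, as month 4 libraries enter and reads were few.

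**Figure D5:**
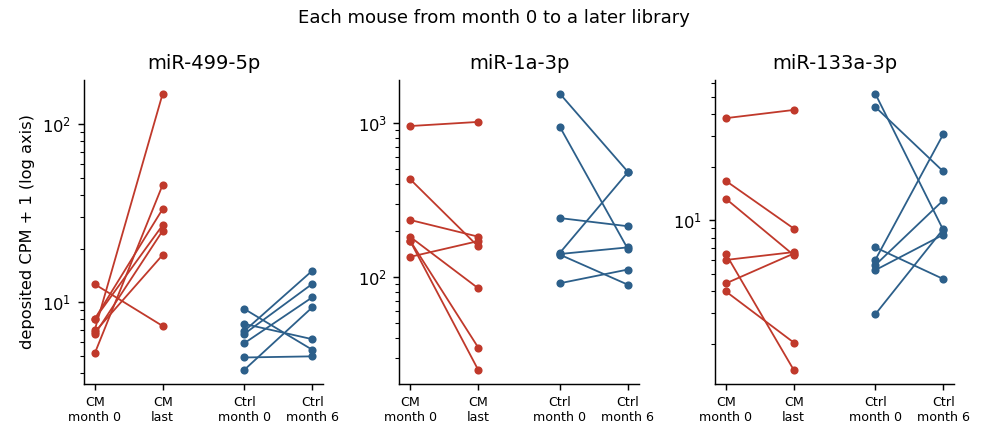
Deposited CPM plus 1 on log axes at month 0 and in a later library of the same mouse, the last library in CM mice and month 6 in Ctrl mice, 1 line per mouse, for miR-499-5p, miR-1a-3p and miR-133a-3p. miR-499-5p is higher at the end in 6 of 7 CM mice, and miR-1a-3p in 2 of 7.

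Ctrl mice served as the background for time. From month 0 to month 6 miR-499-5p was higher in 5 of 7 Ctrl mice, with 3.16 to 8.16 CPM at month 0 and 3.96 to 14.0 CPM at month 6, and the log2 fold change was 0.65 ± 0.35 (SE, adjusted p = 0.202, edgeR). From the recovered reads it was 0.64 ± 0.30 (adjusted p = 0.134), and without mouse 3342 it was 0.87 and passed the threshold (adjusted p = 0.04905). The recovered reads gave -0.90 ± 0.64 (adjusted p = 0.315) for miR-1a-3p and -0.36 ± 0.68 (adjusted p = 0.72) for miR-133a-3p. In this comparison 20.5% of 474 miRNAs were called from the counts and 21.9% of 461 from the recovered reads. Whether the courses of the arms differ was not tested.

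After month 6 CM groups held 1 to 3 libraries, and values are given without a test. At month 7 miR-499-5p was at 15.3, 24.2 and 39.8 CPM in 3 CM libraries and at 3.93 to 6.81 CPM in 7 Ctrl libraries. At month 8 it was at 16.2 and 29.6 CPM against 3.55 to 19.4 CPM, and at month 9 at 17.4 and 18.9 CPM against 4.60 to 7.65 CPM. The arms did not overlap at months 7 and 9, where with 3 and 2 CM libraries a lack of overlap can arise by chance. The 1 CM library of month 10 was at 6.34 CPM, within the Ctrl range of 2.97 to 7.11 CPM. miR-1a-3p overlapped between the arms at each month from 7 to 10.

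The miRNAs whose pattern was most like that of miR-499-5p were not muscle miRNAs. Among 814 others that passed the filter over all training libraries, those with the highest Spearman correlation in log2(CPM + 1) from the counts were miR-126a-5p (0.847), miR-148b-3p (0.824), miR-186-5p (0.791), miR-674-3p (0.777) and miR-148b-5p (0.747). Within CM libraries the same 5 ranged from 0.698 to 0.845 and within Ctrl libraries from 0.525 to 0.707. miR-126a-5p, from the locus of a miRNA known in endothelial and blood stem cells, had a median of 58.7 CPM and a range from 0.734 to 2893 CPM. miR-133a-3p ranked 98th of the 814 with 0.369, miR-1a-3p 155th with 0.271 and miR-206-3p 342nd with 0.0667. In the counts used for these ranks, miR-1a-3p and miR-133a-3p were under 0.5 of the recovered reads in 63 and 65 libraries. Ranks were not made from the deposited CPM. With the deposited CPM the correlations of the 5 were 0.743 to 0.845, and that of miR-1a-3p was 0.413.

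At point 5 of the validation cohort, mice independent of those that chose the members, none of the 4 was called. The deposited values of this table summed to 6037693 to 16258752 per library, so levels cannot be set beside those of the training cohort. miR-499-5p was at 44.8 to 124.9 CPM in 6 CM mice (median 72.96) and at 12.9 to 92.85 CPM in 6 Ctrl mice (median 28), or 13 to 45 and 5 to 30 recovered reads. All 6 CM values lay above the Ctrl median and 1 above every Ctrl value. The difference on the log2(CPM + 1) scale was 1.00 ± 0.48 (SE, adjusted p = 0.855, limma).

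miR-1a-3p at that point was at 649.4 to 7565 CPM in CM mice and 703.9 to 1718 CPM in Ctrl mice, with a difference of 0.63 ± 0.45 (SE, adjusted p = 0.939, limma). miR-133a-3p was at 16.65 to 356.6 CPM against 12.9 to 61.9 CPM (1.09 ± 0.59, adjusted p = 0.87, limma). miR-206-3p was at 0 to 186.8 CPM against 2.57 to 36.6 CPM, with a difference of -1.46 ± 0.96 (adjusted p = 0.90, limma). All 3 ranges overlapped. limma called 0% of 930 miRNAs, with 54 at an unadjusted p under 0.05, and edgeR on the recovered reads called 0 of 478, with 70 at an unadjusted p under 0.05. In the 90 validation libraries of other points, with 1744 to 76906 reads, miR-499-5p had 1 read in 2 CM and 2 Ctrl libraries and none in the rest.

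Markers of other cells were examined beside these results. The 4 listed leukocyte miRNAs summed to 28807 CPM or more in every CM training library and 31223 CPM or more in every Ctrl library of these PBMC samples, and the 3 listed red cell miRNAs to 5414 CPM or more. At month 1 the red cell sum was 24746 to 301540 CPM in CM mice and 14591 to 35709 CPM in Ctrl mice, and the leukocyte sum was 35165 to 119583 CPM against 93244 to 126313 CPM. From the recovered reads of month 1 all 3 red cell miRNAs were called higher in CM mice, among them miR-144-3p by 2.08 (log2, adjusted p = 0.0063, edgeR), and of the 4 leukocyte miRNAs 1, miR-142a-3p, was lower by 0.71 (adjusted p = 0.0295), where 31.4% of 468 miRNAs were called. At month 2 (22.2% of 481 called) 1 of 3 red cell miRNAs was called higher and 1 of 4 leukocyte miRNAs lower. At month 3 (27.8% of 450 called) 2 of 3 red cell miRNAs were called higher, and of the leukocyte miRNAs 1 was higher and 2 were lower. The 4 listed vessel wall miRNAs, miR-143 and miR-145a among them, had sums of 154 to 597.1 CPM against 229 to 621.7 CPM at month 1. Over all months the 2 listed liver miRNAs summed to 183.7 to 1165 CPM in CM libraries, the highest at T6p5. In Ctrl libraries they summed to at most 551 CPM. In the recovered reads of month 1 the 2 went opposite ways, with miR-192-5p at 0.60 and miR-122-5p at -0.78 (log2), neither called. At month 3 only miR-192-5p passed the filter, and it was called higher. The part of these cells in the difference of the members was not tested.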

How the data were processed

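Small RNA libraries were made by the authors from total RNA of PBMC with a TruSeq small RNA protocol. Training libraries were allocated at random to preparation batches, and validation libraries were prepared as collected. The submitters' processing notes name cutadapt, Bowtie, SAMtools and edgeR. The genome build is not settled, since the study's methods and the processing notes name different builds, and the files hold no coordinates. The deposited training count table holds whole reads per mature miRNA. The deposited normalized tables of both cohorts hold a signal that the authors made by dividing read counts by library factors, and whole reads were recovered from it. These tables were normalized separately, so tests stayed within 1 table.

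Counts were fitted with edgeR 4.0.16 (filterByExpr, TMM, glmQLFit and glmQLFTest) in R 4.3.3, each main comparison on its own libraries. The SE is the log2 fold change divided by the square root of the F statistic. P-values were adjusted by Benjamini-Hochberg with a threshold of 0.05 and, in comparisons with 1 library or sum per mouse, measure the spread between mice. In the courses both libraries of a mouse entered as separate samples, so the main fits there ignore the pairing. Joint fits of all training libraries were an alternative. Each mouse enters those fits more than once, so their calls do not measure that spread. Validation values were tested with limma 3.58.1 on log2(CPM + 1), a scale that understates the change of low miRNAs. DESeq2 1.42.0, other filters and scalings, covariates, leaving out each mouse and a block for the mouse were alternatives. The scripts were tested on simulated data. The same mouse gave both libraries of each course, and the correlation of their deviations from the group means ran from -0.179 to 0.146 in CM mice and from -0.131 to 0.151 in Ctrl mice. The validation libraries outside point 5 were too shallow for a test, and no 2 libraries held identical values.

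The members and lists were chosen with earlier results of these data known. The rule for naming took the 4 members in each comparison, the listed muscle miRNAs by count and value, the 5 miRNAs most like miR-499-5p and the marker lists as ranges. Any other miRNA named was picked with its values in view. The limit given for a count of 0 is 3 reads and covers counting error only, as reads were not counted by molecular identifiers.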

Additional observations from a re-analysis of the deposited data

Results flagged for a closer look

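Of 80 groups of 4 to 10 libraries, 10 held a highest or lowest library far from the others, where chance gives about 1 in 20. For miR-499-5p these were Ctrl mouse 3349 at month 2, at 0 CPM against 1.79 to 4.14 CPM in the others, and Ctrl mouse 3335 at month 5, at 28.7 CPM against 6.74 to 12.1 CPM. The same 2 libraries stood apart in miR-1a-3p, at 21.3 CPM against 126.5 to 185.9 CPM and at 639.9 CPM against 126.8 to 201.5 CPM. The month 7 library of Ctrl mouse 3349 stood apart in miR-1a-3p, at 7514 CPM against 111.1 to 351.7 CPM, and in miR-133a-3p, at 506.2 CPM against 4.34 to 21.5 CPM.

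For miR-206-3p, CM mouse 3370 stood apart at month 3, at 1.32 CPM against 0 to 0.438 CPM, and at month 5, at 7.36 CPM against 0.422 to 1.37 CPM. Ctrl mouse 3342 was at 13.2 CPM at month 6 against 0 to 1.98 CPM, and validation CM mouse 2685 at 186.8 CPM at point 5 against 0 to 5.55 CPM. Several of these values rest on a few reads.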

How the results depend on the processing

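Recovered reads and the fits on them that leave out mice were chosen after seeing the data, and shares called are percentages of the miRNAs tested. With miR-1a-3p as a covariate the log2 fold change of miR-499-5p was 0.16 at month 1, -0.92 at month 2 and 1.47 in the sums of months 1 to 3, that of miR-133a-3p was -0.40 at month 5 and -0.61 at month 6, and the share called was 0% at month 1, 12.8% at month 4 and 0.616% in the sums. Adding the G number as covariate gave miR-499-5p 1.61 at month 1 and 1.56 at month 3 (1.77 and 1.36 from recovered reads), miR-1a-3p -2.81 at month 3 and miR-133a-3p 0.49 at month 0 (recovered reads), with 0%, 2.12%, 0% and 1.32% called at months 0 to 3. The shares with the G number are those of the count fits. No G number was shared at month 4, so that fit could not be made.

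At month 2 miR-499-5p passed the threshold with DESeq2 (1.22), without TMM (1.28), from recovered reads (1.41, and 1.49 with miR-206-3p as a covariate) and with limma on deposited CPM (1.31, 1.53 with a pseudocount of 0.5 and 1.31 without a filter). It passed at month 5 with DESeq2 (1.30), and at month 6 from recovered reads with T6p5 libraries (3.19, where 24 of 437 miRNAs were called). Without mice 3334 and 3335 it was at 1.81 at month 5 (1.88 from recovered reads), a description with no test. Recovered reads gave miR-1a-3p -0.51 at month 0, -0.45 in last CM libraries and -0.90 in Ctrl mice, and miR-133a-3p -0.30 and -0.36 in these courses. Without mice 3334 and 3335 recovered reads gave miR-1a-3p -1.18 at month 0, and without month 4 end points miR-133a-3p -0.35 in last CM libraries. At month 0 miR-1a-3p was also at -0.041 with miR-206-3p as a covariate and at -0.056 with limma (-0.055 with a pseudocount of 0.5 and -0.056 without a filter). Without mice 3334 and 3335 its last CM value was -1.34. The causes were not tested.

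At month 0 0.837% were called with DESeq2 and 0% without a filter, from recovered reads, without mice 3334 and 3335, in fits of all training libraries and with limma. At month 2 21.4% were called with DESeq2, 2.63% without a filter and 22.2% from recovered reads. Month 4 had 4.81% with DESeq2, 0.833% without a filter (13 miRNAs), 0% with sex as a covariate, 2.11% from recovered reads, 1.46% without mice 3334 and 3335 and 0.411% with at least 10 counts. Month 5 had 4.16% with DESeq2 and 10.4% without mice 3334 and 3335. Joint fits of all training libraries called 8.59%, 2.21% and 2.33% at months 4 to 6, and with the G number 5.15%, 7.61%, 6.26%, 0.736% and 1.84% at months 2 to 6. Without the mice whose last library was from month 4, 17.7% were called in last CM libraries.

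With the mouse as a replicate block, miR-499-5p was at 2.19 in last CM libraries, a description with no test, as month 4 libraries enter. In Ctrl mice it was at 0.54 (adjusted p = 0.348, edgeR), and there the block changed no call of the members fitted. It gave miR-1a-3p -1.23 in last CM libraries (-1.065 from recovered reads, and -0.34 in Ctrl mice) and miR-133a-3p -0.67 from recovered reads. Leaving out each mouse, miR-499-5p ranged from 1.035 to 1.37 at month 2 (past the threshold without 3340, 3342, 3349 or 3370) and from 1.12 to 1.68 at month 5 (1.10 to 1.74 from recovered reads, past it without 3335 in both), and in Ctrl mice from 0.45 to 0.87 from recovered reads (past it without 3342). In last CM libraries of the 5 mice with no month 4 end point it ranged from 1.43 to 3.15 from recovered reads, past the threshold in 1 of 5 fits (without 3368). miR-1a-3p ranged from -0.040 to 0.65 at month 0 (-1.055 to 0.22 from recovered reads), from -1.34 to 1.01 in last CM libraries and from -0.052 to 1.08 in Ctrl mice. From recovered reads miR-133a-3p ranged from -1.14 to 0.16 at month 0 and from -0.92 to 0.37 in Ctrl mice. Shares called ranged from 0% to 0.41% at month 0, 9.11% to 26.6% at month 2, 0% to 2.88% at month 4, 0% to 7.50% at month 5 and 10.97% to 20.8% in Ctrl mice. Few reads limit miR-206-3p throughout and miR-499-5p in the validation cohort.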
